A study of Homo sapiens with 8 samples.

Results

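The genes described here are 40 genes of mitosis and the spindle assembly checkpoint, followed in a human embryonic stem cell (ESC) line exposed to a dioxin. They were taken from a list of symbols, by a rule that itself uses no measured value. The list was, however, chosen with earlier results of these data known. All 40 symbols were found among the 27317 in the deposited count tables, and all 40 were among the 17268 genes with enough counts to be tested. RNA sequencing covered 8 libraries of Mel1, an established human ESC line, in 4 groups of 2. The groups were DMSO at D1, TCDD at D1, DMSO at D2 and TCDD at D2. TCDD (2,3,7,8-tetrachlorodibenzodioxin), a ligand of the aryl hydrocarbon receptor (AHR), was given at the ESC stage at 2 nM in DMSO, and controls received DMSO alone. D1 cells were ESCs grown in E8 medium and collected just before differentiation was started. D2 cells had spent 2 days in RPMI1640 with B27 lacking insulin and 5 µM of the GSK3 inhibitor CHIR99021, the first step of a protocol that leads to cardiomyocytes. All groups came from 1 line and all received DMSO, and no group had the medium change without the inhibitor. The sources used here do not say how long TCDD was present or whether the replicates were grown as separate cultures. The p-values then reflect only how far these particular libraries differ, and that spread may be technical.

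Mitosis separates the copied chromosomes into daughter cells. CDK1 bound to a B-type cyclin, released from inhibition by CDC25 phosphatases, starts it, and polo and aurora kinases build the spindle. Kinetochores tie each centromere to spindle microtubules, and unattached kinetochores keep the checkpoint proteins MAD2L1, BUB1B and BUB3 bound to CDC20, the activator of the anaphase-promoting complex (APC/C). Once all are attached, the APC/C marks securin and cyclin B for degradation, and separase cuts cohesin. Human ESCs divide rapidly with a short G1 phase, and many mitotic genes are transcribed late in the cell cycle through promoters that carry a CHR element (cell cycle genes homology region), bound by MuvB complexes, and CCAAT boxes, bound by NF-Y.

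The promoters of the 3 members with the largest rise (CENPE, ESPL1 and BUB1) and the 3 with the largest fall (PTTG1, BUB1B and CDK1) from D1 to D2 with DMSO are printed to show how much they differ in these elements. Each run is the 250 bases before the transcription start, 5′ to 3′ on the gene's own strand, from RefSeq on GRCh38.p14. Capitals mark CHR letters (TTTGAA or TTCGAA) and CCAAT letters (CCAAT) on either strand, so that TTCAAA and ATTGG are their reverse forms.
CENPE, chr4:103198344-103198593, minus strand: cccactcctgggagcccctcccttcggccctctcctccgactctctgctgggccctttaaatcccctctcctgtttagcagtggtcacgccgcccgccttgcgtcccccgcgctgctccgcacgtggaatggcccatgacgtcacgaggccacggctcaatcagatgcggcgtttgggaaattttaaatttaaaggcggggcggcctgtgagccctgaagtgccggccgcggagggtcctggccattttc
ESPL1, chr12:53268049-53268298, plus strand: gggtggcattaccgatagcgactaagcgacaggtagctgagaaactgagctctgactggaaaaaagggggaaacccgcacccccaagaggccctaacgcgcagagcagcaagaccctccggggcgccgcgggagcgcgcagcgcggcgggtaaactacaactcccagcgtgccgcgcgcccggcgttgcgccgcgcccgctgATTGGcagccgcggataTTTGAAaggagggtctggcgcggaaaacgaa
BUB1, chr2:110678064-110678313, minus strand: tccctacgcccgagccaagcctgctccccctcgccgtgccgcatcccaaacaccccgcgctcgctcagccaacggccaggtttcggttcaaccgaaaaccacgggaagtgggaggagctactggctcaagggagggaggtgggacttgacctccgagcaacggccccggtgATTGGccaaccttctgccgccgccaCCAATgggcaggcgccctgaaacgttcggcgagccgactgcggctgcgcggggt
PTTG1, chr5:160421605-160421854, plus strand: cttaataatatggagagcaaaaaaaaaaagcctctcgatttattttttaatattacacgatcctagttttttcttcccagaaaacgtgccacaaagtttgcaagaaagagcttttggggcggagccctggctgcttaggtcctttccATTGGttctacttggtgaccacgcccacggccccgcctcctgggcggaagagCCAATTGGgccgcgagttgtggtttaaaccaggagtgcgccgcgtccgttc
BUB1B, chr15:40160819-40161068, plus strand: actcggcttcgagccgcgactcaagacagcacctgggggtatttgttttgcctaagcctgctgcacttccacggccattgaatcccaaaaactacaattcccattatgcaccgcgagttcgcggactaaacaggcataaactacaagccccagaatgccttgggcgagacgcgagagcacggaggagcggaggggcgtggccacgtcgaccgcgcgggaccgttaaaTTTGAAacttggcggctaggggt
CDK1, chr10:60778081-60778330, plus strand: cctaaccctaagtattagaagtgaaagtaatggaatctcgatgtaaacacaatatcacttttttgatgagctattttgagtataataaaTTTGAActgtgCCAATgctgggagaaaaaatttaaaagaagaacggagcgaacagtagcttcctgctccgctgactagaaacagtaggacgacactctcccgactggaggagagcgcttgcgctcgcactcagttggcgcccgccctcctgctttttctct

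The ESPL1 run held an ATTGG that begins 48 bases before the start and a TTTGAA that begins 31 bases before it. BUB1 had ATTGG at 79 and CCAAT at 54 bases before the start, and a TTCGAA just after the start, outside the printed run. The PTTG1 window had 3 CCAAT matches, of which CCAAT at 51 and ATTGG at 48 bases before the start overlap, and no CHR letters. In BUB1B the only match was a TTTGAA at 23 bases before the start. CDK1 and PTTG1 each have 2 windows in the RefSeq table, and the first is printed. The printed CDK1 run had TTTGAA at 161 and CCAAT at 150 bases before the start, while its second window had TTTGAA at 69 and at 13 and ATTGG at 78 and at 46 bases before its start, and a TTCAAA 10 bases after it. The CENPE run held neither the CHR letters searched for nor CCAAT letters, although CENPE had the largest rise. This says only that those letters are not in that window, and other letter forms were not searched.

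Promoter windows of 300 bases (250 before to 50 after the start) were matched for 34 of the 40 members, in 44 windows. Not matched were AURKA, BIRC5, BUB3, TPX2, TTK and UBE2C. CHR letters were in 29 of 44 member windows (65.9%), against 16.4% of all 35116 windows in the table, and CCAAT letters in 33 of 44 (75%) against 34.6%. CHR and CCAAT letters were together in 24 of 44 member windows (54.5%), against 6.38% of all windows. GCGTG, the core letters of the AHR response element, on either strand, was in 22 of 44 (50%), against 36.5%. Of the members with a matched window, CHR letters were found for 6 of 9 that rose from D1 to D2 with DMSO, for 10 of 13 that fell and for 10 of 12 that passed in neither direction. The corresponding numbers for CCAAT letters were 8 of 9, 9 of 13 and 11 of 12. A match is a description of the letters, and binding was not measured here.

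Library totals ran from 34873055 to 43770420 counts, and the 40 members together took 0.772% to 0.905% of a library. The lowest count of a member in any library was 1008 and the highest 39091. Levels are given as CPM, counts scaled to a common library size and corrected for library composition, and they are compared across libraries within a gene, not between genes. The exposure was visible in the AHR targets: TIPARP was 10.8-fold higher with TCDD at D1 and 3.69-fold higher at D2, and CYP1A1 113-fold and 5.89-fold. The CYP1A1 folds rest on low DMSO levels, 0.761 and 0.813 CPM at D1 and 0.464 and 0.292 CPM at D2. With TCDD CYP1A1 had 101 and 77.7 CPM at D1 and 2.56 and 1.82 CPM at D2. The D2 call for CYP1A1 was lost without DMSO D2 replicate 1 (adjusted p = 0.136), DMSO D2 replicate 2 (0.213) or TCDD D2 replicate 1 (0.0976). The summed level of 7 ESC markers was 4624 to 4729 CPM in the D1 libraries. At D2 the sum was 3986 to 4059 CPM with DMSO and 4339 to 4368 CPM with TCDD. The markers did not move together. From D1 to D2 with DMSO, NANOG rose (log2 fold change 0.65), and POU5F1 and LIN28A were not called. SOX2, DPPA4, TDGF1 and ZFP42 fell. With TCDD against DMSO at D2, SOX2 was called higher (0.59) and NANOG was not called (-0.15). The 6 primitive streak markers in the tables summed to 8.62 to 10.3 CPM at D1, 574 to 613 CPM with DMSO at D2 and 276 to 311 CPM with TCDD at D2. From D1 to D2, T, MIXL1, EOMES, GSC and MESP1 rose in both treatments. TBX6 had -0.22 with DMSO, not called, and -0.52 with TCDD, called lower. With TCDD against DMSO at D2, T, MIXL1, EOMES and GSC were called lower, and MESP1 (0.35) and TBX6 (-0.12) were not called. Among 7 fibroblast markers, LUM was at 0 in every library, DCN and COL3A1 had at most 2 counts, and the sum, mostly THY1 and COL1A1, was 834 to 929 CPM at D1, 298 to 315 CPM with DMSO at D2 and 353 to 355 CPM with TCDD at D2. This list was mixed as well: from D1 to D2 with DMSO, COL1A2 (0.29) and POSTN (0.98) rose while THY1 (-2.48) and COL1A1 (-1.27) fell. With TCDD against DMSO at D2, COL1A1 was called higher (0.54). THY1, COL1A2 and POSTN had negative values there that were not called. The neural crest list summed to 20.7 to 25.2 CPM at D1 and 3.87 to 4.72 CPM at D2. Of the 2 endoderm markers SOX17 had at most 1 count, and FOXA2 brought the sum from at most 0.14 CPM at D1 to 4.77 to 6.25 CPM at D2. These sums moved with day. The ESC, streak, fibroblast and neural crest sums also differed between TCDD and DMSO at D2 without overlap. So did the sum of 3 cardiomyocyte markers, at 2.92 to 3.41 CPM with DMSO and 3.61 to 3.96 CPM with TCDD. At D1 the ESC and streak sums did not overlap between treatments either. Among single tested genes, 24.4% lay apart with TCDD higher and 23.3% with TCDD lower at D2, and 18.9% and 18.6% at D1. The part of these sums in the results below was not tested. In bulk RNA, fewer cells in mitosis and less RNA per mitotic cell cannot be told apart.

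TCDD against DMSO at D1 asks whether the exposure altered mitotic transcripts in ESCs before differentiation. No member was called in either direction. By edgeR's quasi-likelihood test 0 of 40 members passed an adjusted p of 0.05, where 1.14% of all tested genes passed in either direction. At an unadjusted p under 0.05 there were 5 members, and DESeq2 gave 0 calls and 4 at an unadjusted p under 0.05. The log2 fold changes ran from -0.13 to 0.17 with a median of 0.02, against a median of 0.00 over all tested genes, and 24 members were positive and 16 negative. Every 95% interval lay between -0.25 and 0.30, so in these libraries changes beyond 1.19-fold lower or 1.23-fold higher lay outside the interval of each member. The smallest adjusted p was that of BUB3, which binds kinetochores with BUB1 and BUB1B. It stood at 187 and 193 CPM with DMSO and 202 and 218 CPM with TCDD at D1 (log2 fold change 0.15 ± 0.05, adjusted p = 0.224). CDC25C, a phosphatase that activates CDK1, had 33.8 and 35.3 CPM with DMSO and 36.8 and 40.7 CPM with TCDD (log2 fold change 0.17 ± 0.07, adjusted p = 0.348). In both genes the TCDD libraries lay above the DMSO libraries. The other members at an unadjusted p under 0.05 were CENPE, CENPF and MKI67, all with negative values.

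MKI67, the antigen Ki-67 that coats mitotic chromosomes, had 458 and 442 CPM with DMSO and 439 and 384 CPM with TCDD at D1. The replicates with TCDD differed from each other by more than the groups did, and the log2 fold change of -0.13 ± 0.06 had an adjusted p of 0.429. Without TCDD D1 replicate 1 the value for MKI67 was -0.23 with an adjusted p of 0.0317, the 1 member called in any fit of this comparison that left out a library. The libraries of the TCDD and DMSO groups did not overlap for 7 members with TCDD higher (18.9% of all tested genes did so) and for 5 with TCDD lower (18.6%).

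TCDD against DMSO at D2 asks the same question after the start of differentiation. Again 0 of 40 members passed by edgeR, where 2.9% of all tested genes passed in either direction. There were 3 members at an unadjusted p under 0.05, and DESeq2 called 0 with 4 at an unadjusted p under 0.05. Log2 fold changes ran from -0.07 to 0.12 with a median of 0.02, against 0.00 over all tested genes, and 25 members were positive and 15 negative. All intervals lay between -0.22 and 0.22, or 1.17-fold in either direction. The smallest adjusted p belonged to PLK1, the polo kinase that drives spindle assembly and mitotic exit. PLK1 stood at 186 and 183 CPM with DMSO and 199.8 and 203 CPM with TCDD at D2 (log2 fold change 0.12 ± 0.04, 95% interval 0.03 to 0.22, adjusted p = 0.175). Both TCDD libraries were above both DMSO libraries. ANLN, an actin-binding protein of the cleavage furrow, and INCENP, the scaffold of the chromosomal passenger complex, had log2 fold changes of 0.12 and 0.12 and adjusted p of 0.211 and 0.259. The libraries did not overlap for 14 members with TCDD higher, where 24.4% of all tested genes did so, and for 1 member with TCDD lower, CDC25B, where 23.3% did so.

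**Figure D1:**
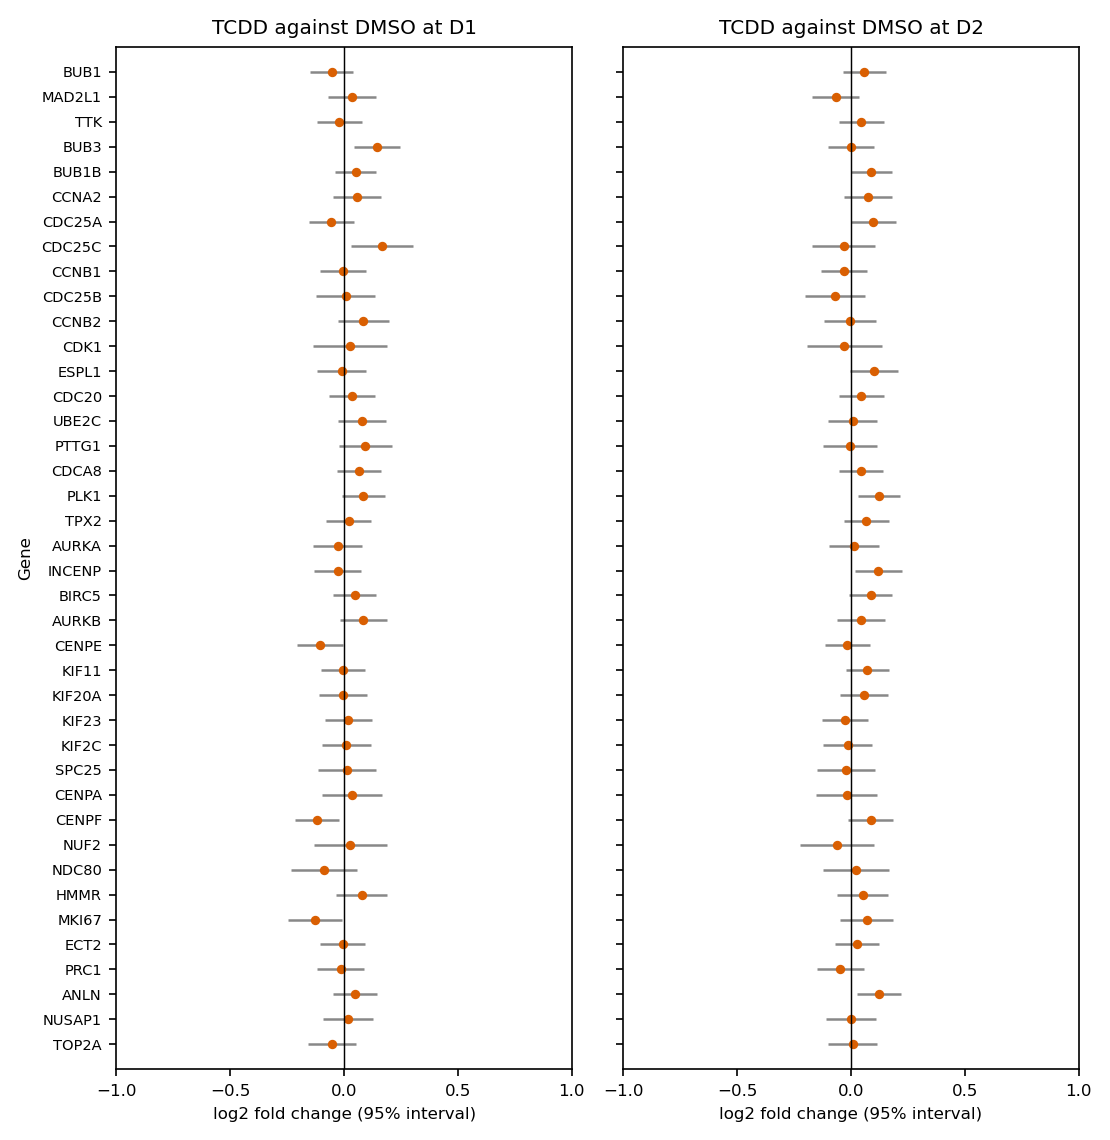
Log2 fold change of TCDD against DMSO for each of the 40 members at D1 (left) and at D2 (right), with the genes on the vertical axis ordered by role. Points are edgeR estimates from 2 libraries a group and lines are 95% intervals, all of which lie between -0.25 and 0.30.

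Differences between replicates were of the size of the TCDD differences, whose median size was 0.04 at D1 and 0.05 at D2, and most members shared their direction. With TCDD at D1, 32 of 40 members were higher in replicate 2 than in replicate 1, with a median log2 difference of 0.09, and the largest gap was 0.24 for NUF2. With DMSO at D1 the number was 25 of 40 and the median 0.04. At D2 replicate 2 was higher for only 6 of 40 members with DMSO, where the median difference was -0.05, and for 8 of 40 with TCDD, where it was -0.07. Over all tested genes the median replicate difference lay between -0.01 and 0.00 in each group. Relative to the mean of DMSO at D1, the median member stood at -0.02 and 0.02 in the DMSO D1 libraries, at -0.03 and 0.06 with TCDD at D1, at 0.00 and -0.09 with DMSO at D2 and at -0.01 and -0.06 with TCDD at D2. The group medians thus overlapped between treatments on each day.

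Whether the TCDD effect differed between the days was tested for each member, as D2 minus D1. By edgeR 0 of 40 passed, where 0.822% of all tested genes passed, 6 had an unadjusted p under 0.05, and DESeq2 gave 0 calls with 3 at an unadjusted p under 0.05. The differences ran from -0.20 to 0.21 with intervals within -0.39 to 0.36. CENPF, a kinetochore and nuclear matrix protein of late cell cycle, had the smallest adjusted p, with a difference of 0.21 ± 0.07 (adjusted p = 0.209). It stood at 590.1 and 558 CPM with DMSO and 531 and 526 CPM with TCDD at D1, and at 607 and 558 CPM and 624 and 613 CPM at D2. TCDD values were thus the lower ones at D1 and the higher ones at D2. MKI67 had a difference of 0.20 ± 0.08 (adjusted p = 0.375), and without TCDD D1 replicate 1 this became 0.30 (adjusted p = 0.0291).

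D2 against D1 with DMSO asks how these genes move when ESCs enter the differentiation protocol. Members moved in both directions. Of 40, 9 rose, or 22.5%, where 32.5% of all tested genes rose, and 17 fell, or 42.5%, where 30.7% of all tested genes fell. The 26 called members are 65% of the list, against 63.2% of all tested genes. Without a correction for library composition 4 members were higher and 21 lower, while the median of all tested genes moved to -0.08. Changes were small: the median size of the log2 fold change was 0.17, against 0.32 over all tested genes. Only CENPE and PTTG1 exceeded 1.5-fold (5% of members), where 28.6% of all tested genes did. The median log2 fold change was -0.04, against 0.01 over all tested genes (-0.09 to 0.00 when each library was left out in turn), and the range was -0.59 for PTTG1 to 0.82 for CENPE. Time in culture, medium, the GSK3 inhibitor and any batch between the days cannot be told apart.

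**Figure D2:**
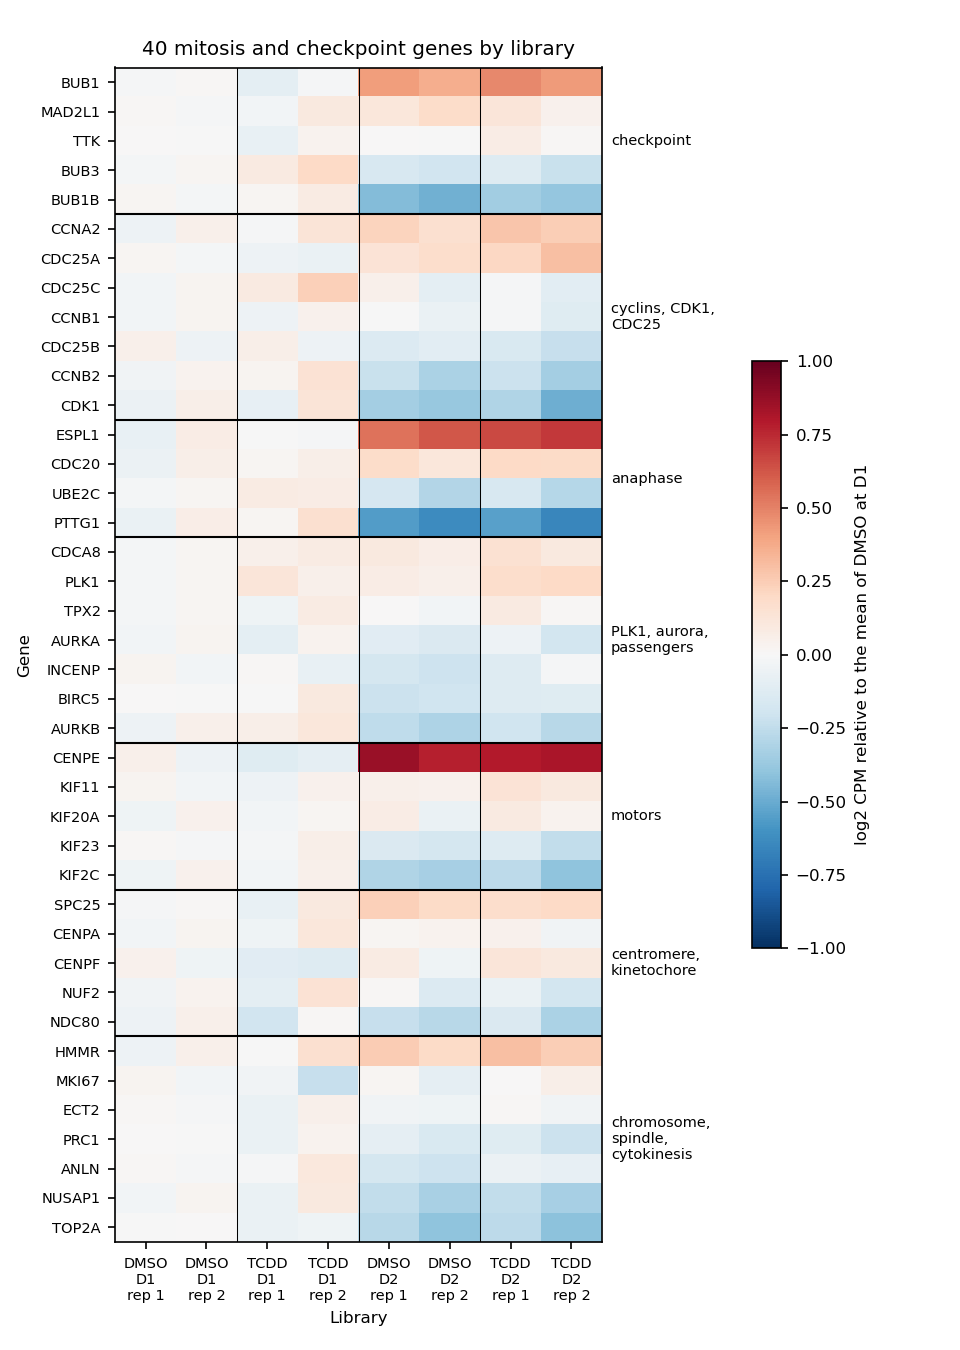
Level of each member (rows, grouped by role) in each of the 8 libraries (columns), as log2 CPM relative to the mean of the 2 DMSO D1 libraries. CENPE, ESPL1 and BUB1 are red and PTTG1, BUB1B and CDK1 are blue in all 4 D2 libraries, while TCDD and DMSO columns of the same day are alike in colour for most genes.

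The checkpoint genes split. BUB1, a kinase that recruits checkpoint proteins to kinetochores and marks centromeric histone H2A, had 348 and 355 CPM with DMSO and 329 and 349 CPM with TCDD at D1. At D2 BUB1 had 471 and 453 CPM with DMSO and 489.8 and 471 CPM with TCDD. All 4 D2 libraries were above all 4 D1 libraries, a rise of 0.39 ± 0.05 on the log2 scale with DMSO (adjusted p = 1.81e-07). BUB1B (BubR1), its paralog and a direct inhibitor of the APC/C, went the other way. Its levels were 368 and 359 CPM with DMSO and 369 and 384 CPM with TCDD at D1, then 269 and 260.3 CPM and 286 and 277 CPM at D2. Every D2 library was below every D1 library, with a log2 fold change of -0.46 ± 0.04 (adjusted p = 1.25e-08). BUB3, the partner of both, fell as well, from the D1 values above to 169.8 and 166 CPM with DMSO at D2 (log2 fold change -0.18 ± 0.05, adjusted p = 0.00362).

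MAD2L1, the protein that closes around CDC20, had 138 and 135 CPM at D1 and 148 and 155 CPM at D2 with DMSO. With TCDD it had 134 and 146 CPM and 148 and 140.3 CPM, and these groups overlapped. The rise with DMSO (0.15 ± 0.05, adjusted p = 0.0134) was lost without DMSO D1 replicate 2 (adjusted p = 0.0809), without DMSO D2 replicate 2 (0.144) and with no composition scaling (0.286). TTK (MPS1), the kinase at the head of the checkpoint, stood at 128 and 128 CPM at D1 and 128 and 127 CPM at D2 with DMSO. With TCDD it stood at 122 and 131 CPM and 135 and 129 CPM. Its D2 against D1 interval with DMSO was -0.10 to 0.10 on the log2 scale (adjusted p = 0.955).

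Cyclins and CDK1 did not move together. CCNB1, cyclin B1, had 322 and 334 CPM with DMSO and 316 and 338 CPM with TCDD at D1, and 327 and 314 CPM and 326 and 301 CPM at D2. The groups overlapped on each day and between days, and the change with DMSO was -0.03 ± 0.05 (95% interval -0.14 to 0.07, adjusted p = 0.565). CDK1, its kinase, had 222 and 241 CPM with DMSO and 219 and 253 CPM with TCDD at D1. At D2 CDK1 had 183 and 178 CPM with DMSO and 188 and 165 CPM with TCDD. CDK1 fell (-0.36 ± 0.07, adjusted p = 0.0011) with no overlap between days, although its replicates with TCDD lay far apart on each day. CCNB2, cyclin B2, fell too (-0.27 ± 0.05, adjusted p = 0.000201).

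CCNA2, cyclin A2, which acts from S phase to early mitosis, rose from 211 and 225 CPM at D1 to 255 and 243 CPM at D2 with DMSO. With TCDD it stood at 216 and 238 CPM and 264 and 259 CPM, and all D2 libraries were above all D1 libraries. Its rise with DMSO (0.19 ± 0.05, adjusted p = 0.00291) was lost without DMSO D1 replicate 1 (0.0572) and with no composition scaling (0.0974).

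The 3 CDC25 phosphatases remove the inhibitory phosphates from cyclin-dependent kinases. CDC25A, which acts from the G1/S boundary on, rose from 91.3 and 88.7 CPM to 99 and 102 CPM with DMSO, and had 87.1 and 86.1 CPM and 104 and 111 CPM with TCDD. Its D2 libraries were all above its D1 libraries (0.16 ± 0.05, adjusted p = 0.00715), and the call with DMSO was lost without DMSO D1 replicate 2 (0.0636), without DMSO D2 replicate 2 (0.0749) and with no composition scaling (0.197). CDC25B stood at 33.7 and 31.3 CPM and 29.5 and 30.2 CPM with DMSO, and at 33.8 and 31.4 CPM and 29.2 and 27.7 CPM with TCDD. Its log2 fold change of -0.12 ± 0.06 with DMSO had an adjusted p of 0.102 in the fit of all 8 libraries, of 0.047 when only the compared groups were fitted and of 0.00668 with no composition scaling. CDC25C had 35.7 and 32.3 CPM with DMSO and 34.2 and 32.1 CPM with TCDD at D2, beside the D1 values above. With DMSO its D2 and D1 libraries overlapped (-0.02 ± 0.07, adjusted p = 0.77).

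The anaphase genes gave the most opposed pair. PTTG1 (securin), which holds separase inactive until the APC/C destroys it, had 189.6 and 207 CPM with DMSO and 201 and 222 CPM with TCDD at D1. At D2 PTTG1 had 135 and 128 CPM with DMSO and 136 and 126 CPM with TCDD. All 4 D2 libraries were below all 4 D1 libraries (-0.59 ± 0.06, 1.51-fold lower, adjusted p = 2.25e-08). PTTG1 has near-identical copies in the genome, and the sources used here do not say how reads with several matches were counted, so its level is uncertain.

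ESPL1 (separase), the protease that cuts cohesin, had 79.9 and 88.3 CPM with DMSO and 83.8 and 83.1 CPM with TCDD at D1. At D2 it had 123 and 129 CPM and 133 and 137 CPM. All D2 libraries were above all D1 libraries, a rise of 0.58 ± 0.05 (1.5-fold, adjusted p = 3.9e-09). CDC20, the APC/C activator that the checkpoint restrains, rose from 185 and 202 CPM to 219.8 and 209 CPM with DMSO and stood at 195 and 201 CPM and 221 and 221 CPM with TCDD. The call for CDC20 with DMSO (0.15 ± 0.05, adjusted p = 0.0111) was lost without DMSO D1 replicate 1 (0.184), without DMSO D2 replicate 1 (0.141) and with no composition scaling (0.287). UBE2C, the ubiquitin-conjugating enzyme of the APC/C, fell (-0.23 ± 0.05, adjusted p = 0.000558).

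**Figure D3:**
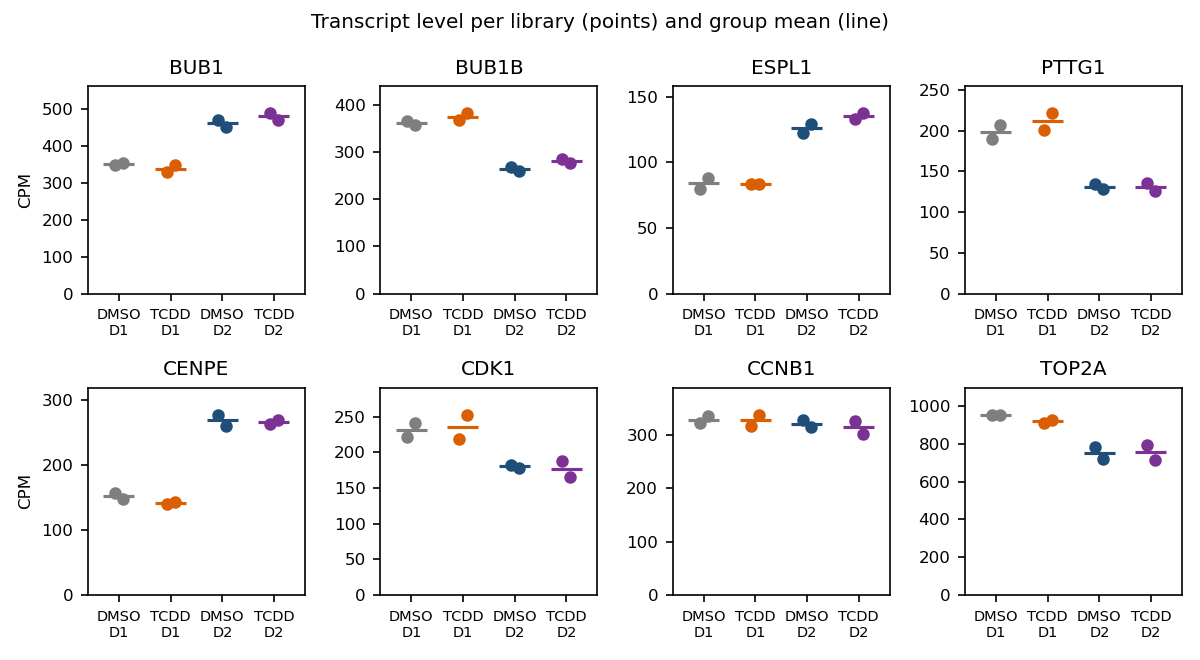
CPM of 8 members in each library (points) with the mean of each group of 2 (line). BUB1, ESPL1 and CENPE are higher and BUB1B, PTTG1, CDK1 and TOP2A lower in all D2 libraries than in all D1 libraries, and CCNB1 overlaps between the days.

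Among PLK1, the aurora kinases and the passenger complex, 4 of 7 fell and none rose with DMSO, where 30.7% of all tested genes fell and 32.5% rose, a background that holds for the role counts that follow. AURKB, the kinase of the chromosomal passenger complex that corrects wrong attachments, had 123 and 132 CPM at D1 and 107 and 103 CPM at D2 with DMSO, and 133 and 138 CPM and 111 and 105 CPM with TCDD. All D2 libraries were below all D1 libraries (-0.28 ± 0.05, adjusted p = 4.93e-05). BIRC5 (survivin), which docks the complex on the centromere, had 201 and 199 CPM and 172 and 174 CPM with DMSO, and 199 and 214 CPM and 183 and 184 CPM with TCDD. BIRC5 fell (-0.21 ± 0.05, adjusted p = 0.000454), and so did INCENP (-0.19 ± 0.05, adjusted p = 0.00232). CDCA8 (borealin), the remaining subunit, had a log2 fold change of 0.08 ± 0.05 (adjusted p = 0.121).

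AURKA, the spindle pole kinase, had 194 and 202 CPM at D1 and 183 and 179 CPM at D2 with DMSO, and 185 and 203 CPM and 191 and 175 CPM with TCDD, where the days overlapped. Its fall with DMSO (-0.13 ± 0.05, adjusted p = 0.0372) was lost when any of the 4 DMSO libraries was left out, with an adjusted p of 0.0527 and 0.219 without either D1 library and 0.0909 and 0.192 without either D2 library. PLK1 stood at 174 and 179 CPM with DMSO and 192 and 183 CPM with TCDD at D1, beside the D2 values above, and had a D2 against D1 change of 0.06 ± 0.04 with DMSO (adjusted p = 0.226). TPX2, the activator of AURKA on spindle microtubules, had -0.01 ± 0.05 (adjusted p = 0.834).

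Of 5 motors, 1 rose and 2 fell with DMSO. CENPE, the kinetochore kinesin that carries chromosomes to the spindle equator, had 158 and 148 CPM with DMSO and 140.2 and 144 CPM with TCDD at D1. At D2 CENPE had 278 and 261 CPM with DMSO and 264 and 269 CPM with TCDD. The days did not overlap, and the rise of 0.82 ± 0.05 (1.76-fold, adjusted p = 5.97e-12) was the largest of the 40 members. KIF2C (MCAK), a kinesin that takes microtubule ends apart, fell from 236 and 252 CPM to 198 and 194 CPM with DMSO (-0.32 ± 0.05, adjusted p = 1.89e-05). With TCDD KIF2C had 239 and 253 CPM and 203 and 184 CPM, also without overlap. KIF23, a kinesin of the central spindle, fell as well (-0.16 ± 0.05, adjusted p = 0.00729), a call lost without DMSO D1 replicate 1 (0.0536) and without DMSO D2 replicate 2 (0.0717). KIF11 (Eg5), which pushes the spindle poles apart, and KIF20A, a cytokinesis kinesin, had 0.05 and 0.01 and passed in neither direction.

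At the centromere and kinetochore, SPC25, a subunit of the NDC80 complex that grips microtubules, rose from 32.8 and 33.1 CPM to 38.8 and 37.5 CPM with DMSO, and had 31.3 and 35.3 CPM and 37.3 and 37.8 CPM with TCDD. All D2 libraries were above all D1 libraries (0.21 ± 0.06, adjusted p = 0.0051), with the call lost under no composition scaling (0.0908). NDC80, of the same complex, fell (-0.25 ± 0.07, adjusted p = 0.00414), and its call was lost without DMSO D1 replicate 2 (0.0502). NUF2, their partner, had -0.06 ± 0.07 (adjusted p = 0.487). CENPA, the histone variant that marks centromeres, had 30.4 and 31.7 CPM with DMSO and 30.1 and 33.5 CPM with TCDD at D1, and 31.4 and 31.8 CPM and 31.9 and 30.3 CPM at D2. The CENPA groups overlapped on and between the days (0.03 ± 0.06, adjusted p = 0.748).

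Of the 7 genes of chromosome structure, spindle and cytokinesis, 1 rose and 4 fell with DMSO. TOP2A, the topoisomerase that untangles sister chromatids, had 951 and 955 CPM with DMSO and 912 and 924 CPM with TCDD at D1. At D2 TOP2A had 785 and 720.4 CPM with DMSO and 796 and 716 CPM with TCDD, all below the D1 libraries (-0.34 ± 0.05, adjusted p = 7.24e-06). NUSAP1, which bundles spindle microtubules near chromosomes, fell from 291 and 302 CPM to 249 and 236 CPM with DMSO (-0.29 ± 0.05, adjusted p = 8.21e-05). With TCDD NUSAP1 had 283 and 317 CPM and 249 and 236 CPM. ANLN fell as well (-0.19 ± 0.05, adjusted p = 0.00118), and PRC1, a bundler of central spindle microtubules, had -0.12 ± 0.05 (adjusted p = 0.0434). The PRC1 call was lost when any of the 4 DMSO libraries was left out (adjusted p = 0.143 and 0.116 without either D1 library, 0.0643 and 0.294 without either D2 library). It was also lost by DESeq2 (0.0527) and with the replicate block (0.0516).

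HMMR, a spindle pole protein and hyaluronan receptor, rose from 144 and 154 CPM to 177 and 169.9 CPM with DMSO, and had 148 and 166 CPM and 183 and 177 CPM with TCDD (0.22 ± 0.05, adjusted p = 0.0013 with DMSO). MKI67, widely used as a marker of cycling cells, had 455 and 422 CPM with DMSO and 450.1 and 469 CPM with TCDD at D2. With DMSO the days overlapped (-0.04 ± 0.06, adjusted p = 0.58). With TCDD both D2 libraries were above both D1 libraries (439 and 384 CPM), a comparison described below. ECT2, the exchange factor that activates RhoA at the furrow, had -0.04 ± 0.05 (adjusted p = 0.492). With no composition scaling MKI67 and ECT2 were called lower (adjusted p = 0.048 and 0.0264), as was CCNB1 (0.0423).

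D2 against D1 was also measured in the TCDD libraries, which share no library with the DMSO comparison. There 11 members rose (27.5%), where 33.1% of all tested genes rose, and 16 fell (40%), where 32.2% of all tested genes fell. Without the composition correction 5 were higher and 22 lower, and the median of all tested genes moved to -0.11. The median was -0.05, against 0.00 over all tested genes, and 3 members exceeded 1.5-fold (7.5%), where 29.9% of all tested genes did. CENPE again had the largest rise (0.91 ± 0.05, adjusted p = 1.15e-12), followed by ESPL1 (0.69 ± 0.05) and BUB1 (0.50 ± 0.05). PTTG1 again had the largest fall (-0.69 ± 0.06, adjusted p = 2.37e-09). Of the 26 members called with DMSO and the 27 called with TCDD, 22 were called in both in the same direction (8 higher and 14 lower), which is 84.6% of the first list and 81.5% of the other, and none was called in opposite directions. Over all tested genes the same overlap was 86.8% and 84% of the called genes. The sign was the same for 36 of 40 members. Across the 40 genes the log2 fold changes had a Pearson correlation of 0.96 and a Spearman correlation of 0.92, and the Pearson correlation over all tested genes was 0.92. Genes are not independent replicates, and no p is attached.

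Called with DMSO alone were MAD2L1, AURKA, NDC80 and INCENP, and with TCDD alone CDC25B, CDC25C, KIF11, CENPF and MKI67. For none of these 9 did the difference between the treatments itself pass, with adjusted p from 0.209 to 0.897. CDC25C fell with TCDD (-0.22 ± 0.07, adjusted p = 0.00545), from D1 values that were its highest, and the call was lost without TCDD D1 replicate 2 (0.0877) and without TCDD D2 replicate 2 (0.0564). CDC25B fell (-0.20 ± 0.06), and its call was lost without TCDD D1 replicate 1 (0.114) and without TCDD D2 replicate 2 (0.0694). KIF11 rose (0.12 ± 0.05), and its call was lost without TCDD D1 replicate 1 (0.16), without TCDD D2 replicate 1 (0.119), with only the compared groups fitted (0.0784) and with no composition scaling (0.8). CENPF rose with TCDD (0.23 ± 0.05, adjusted p = 0.000247), and with DMSO it had 0.02 ± 0.05 (adjusted p = 0.72). MKI67 rose with TCDD (0.16 ± 0.06, adjusted p = 0.0192), a call lost without TCDD D1 replicate 2 (0.272), without TCDD D2 replicate 2 (0.141) and with no composition scaling (0.423).

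**Figure D4:**
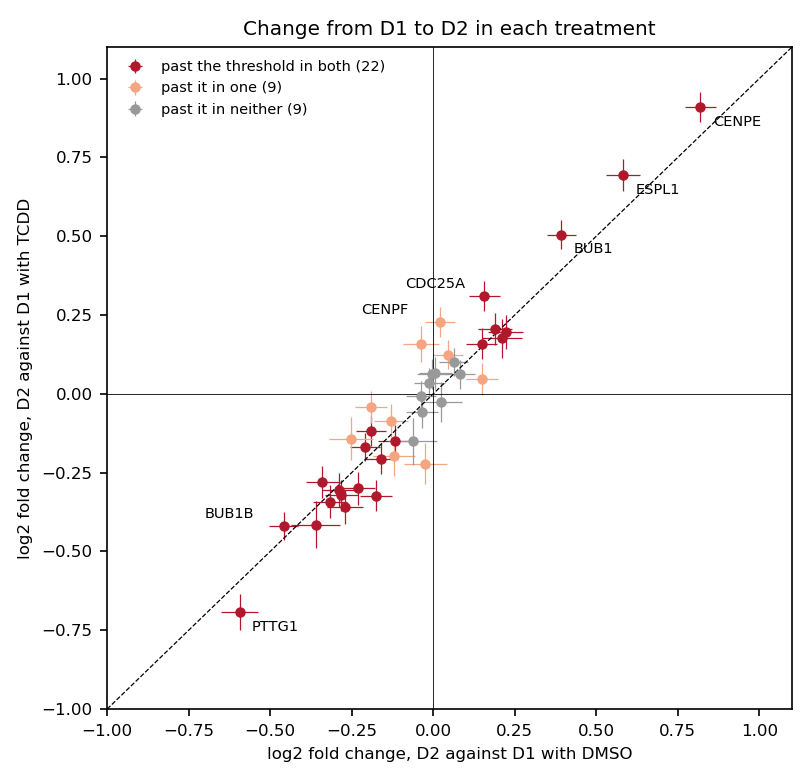
Log2 fold change of D2 against D1 for each member with DMSO (horizontal) and with TCDD (vertical), with standard errors, and a dashed line of equality. The 22 members called in both treatments lie in the upper right and lower left, from PTTG1 at -0.59 and -0.69 to CENPE at 0.82 and 0.91.

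Of the related genes of the same pathways, 140 of 141 were tested. With TCDD at D1 edgeR and DESeq2 each called 0 of them, with 14 and 8 at an unadjusted p under 0.05. By edgeR 1.14% of all tested genes passed at D1 and 2.9% at D2. At D2 edgeR called 1 related gene, the G1 kinase CDK6 (adjusted p = 0.0292), and DESeq2 also called 1. The edgeR call for CDK6 was lost when any D2 library was left out. From D1 to D2 with DMSO, 58 rose (41.4%, beside 32.5% of all tested genes) and 23 fell (16.4%, beside 30.7%), with a median of 0.09. Condensin and cohesin, the rings that fold chromosomes and hold sisters together, had 13 of 20 genes higher and 3 lower. STAG1, a cohesin subunit, was 1.07 on the log2 scale, NCAPG and SMC2 of condensin 0.50 and 0.41, and SMC3 of cohesin 0.36. ESPL1, which cuts cohesin, and its inhibitor PTTG1 are described above. In the inner centromere and outer kinetochore list 11 of 30 rose and 6 fell. The 4 with the smallest p all rose: ZWINT (0.77), SKA3 (0.66), ZW10 (0.54) and SKA1 (0.58), which link kinetochores to checkpoint proteins and microtubules.

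The counts of the lists below stand beside the same background, 32.5% of all tested genes higher and 30.7% lower with DMSO. The APC/C list had 7 of 17 higher and 3 lower. Its subunits ANAPC4 (0.33) and ANAPC2 (0.31) rose, and ANAPC16 (-0.29) and the chain-extending enzyme UBE2S (-0.34) fell, as UBE2C did. Further kinesins and spindle proteins had 5 of 22 higher, led by KIF15 (0.72), a kinesin that backs up KIF11, and BORA (0.45), an activator of AURKA. In that list 4 were lower, among them the microtubule polymerase CKAP5 (-0.26) and the cytokinesis kinase CIT (-0.27). Mitotic entry kinases and inhibitors had 5 of 11 higher and 1 lower. The DNA damage kinase CHEK2 rose (0.49), as did ARPP19 (0.22) and ENSA (0.18), inhibitors of the phosphatase that opposes CDK1, and the kinase PBK fell (-0.31). The ENSA call was lost with no composition scaling (adjusted p = 0.0778) and without DMSO D1 replicate 2 (0.0516), and the PBK call without DMSO D2 replicate 2 (0.0548).

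The regulators that transcribe mitotic genes had 9 of 14 higher and 1 lower with DMSO, and 10 higher and 2 lower with TCDD, where 33.1% of all tested genes were higher and 32.2% lower. E2F4 (0.59), TFDP1 (0.50) and RBL1 (0.62), subunits that join MuvB in the repressive DREAM complex, rose. The gene that fell with DMSO was RBL2, from 60.2 and 61.3 CPM at D1 to 55 and 52.1 CPM at D2. With TCDD the lower genes were RBL2 and NFYB. These 2 are named beyond the 4 with the smallest p, and their calls were not followed over the alternatives. MYBL2 (0.50), which turns MuvB into an activator at CHR promoters, rose too. FOXM1, another activator there, was looked at after its values were seen and had 0.17 ± 0.05 (adjusted p = 0.00283), a call lost with no composition scaling (0.107). With TCDD against DMSO FOXM1 had -0.05 at D1 and 0.08 at D2, neither of them called.

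Transcript length was compared with the changes, using the longest protein-coding transcript in GENCODE 29 for the 40 members and for 14860 of the tested genes (86.1%). For TCDD against DMSO at D1 the Spearman correlation with length was -0.49 over the members, against -0.27 over all matched genes. MKI67 (12678 bases) and CENPF (10307 bases) had negative values, and BUB3 (7828 bases), also long, had a positive one. At D2 it was 0.31 over the members, against 0.04, and for the difference of the TCDD effects 0.52, against 0.22. For D2 against D1 it was 0.22 with DMSO, against -0.04, and 0.35 with TCDD, against 0.04. All points of a comparison come from the same libraries, and the comparisons share libraries with each other. The part of length in any of these values was not tested.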

How the data were processed

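The deposited tables hold, per gene symbol, the authors' read counts, whole numbers with no normalisation. The submitters' processing notes name cutadapt 1.9.1, STAR, featureCounts 1.5.1 and the hg19 build. Annotation, strand setting and the handling of multiply matching reads were not given in the sources used here, which leaves genes with near-identical copies, overlaps or an antisense partner uncertain. Groups were read from the labels.

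Counts were tested with edgeR 4.0.16 (R 4.3.3, TMM scaling, filterByExpr, robust quasi-likelihood F test, 8 libraries in 1 fit with a mean per group). Adjusted p-values are Benjamini-Hochberg over all 17268 genes tested, called under 0.05. Standard errors were taken from the F statistic, and 95% intervals from its degrees of freedom. The common biological coefficient of variation was 3.86%. Replicates differed by more than sampling noise (chi-square per gene 3.21 to 6.59, where 1 is expected), and each was kept as a sample. Values per library are given for a preset list of 18 members, for members called with TCDD or in the difference of TCDD effects, for the 6 largest rises and falls from D1 to D2 with DMSO, and for the few members a result turned on. From each related list up to 4 called genes with the smallest p are named. The members and lists were chosen with earlier results of these data known. Alternatives were DESeq2 1.42.0, other scaling, no filter, fits of only the compared groups, a replicate block and leaving out each library. Promoters are RefSeq's (GRCh38.p14), transcript lengths GENCODE 29's, and neither gives coordinates for the hg19 counts. HASPIN was found under its older symbol GSG2.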

Additional observations from a re-analysis of the deposited data

Results flagged for a closer look

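Among the 40 members, the genes named from the related lists and the 2 label checks, the TCDD effect differed between D2 and D1 by a test of the difference itself for 2 genes, neither of them a member. Over all tested genes 142 passed (0.822%), 91 higher and 51 lower. Passing this same test was 1 way for a related gene to be named, so the count of named genes is not an unselected one. Of all 140 related genes tested, 1 passed (0.714%). CDK6, a kinase of G1 progression from the related lists, had 118 and 126 CPM with DMSO and 108 and 113 CPM with TCDD at D1, and 88.8 and 84.7 CPM and 100.5 and 98.4 CPM at D2. Its TCDD log2 fold change was -0.15 ± 0.05 at D1 (adjusted p = 0.217) and 0.20 ± 0.05 at D2 (adjusted p = 0.0292), a difference of 0.34 ± 0.07 (adjusted p = 0.0175). TCDD libraries were the lower ones at D1 and the higher ones at D2. The D2 call for CDK6 was lost when any of the 4 D2 libraries was left out (adjusted p from 0.102 to 0.353) and with no composition scaling (0.0629). The call of the difference was lost without DMSO D1 replicate 2 and without any of the 4 D2 libraries (adjusted p from 0.0562 to 0.137). TIPARP, an AHR target used to check the labels, was higher with TCDD on both days, and the difference between its log2 fold changes was -1.55 (adjusted p = 3.29e-08). CYP1A1, the other label check, had a difference of -4.27 that missed the threshold by edgeR (adjusted p = 0.0596) and passed by DESeq2 (adjusted p = 1.47e-25). Over its other alternatives the adjusted p ran from 7.09e-20 to 0.447.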

How the results depend on the processing

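No called value changed sign under any alternative that was run. With no composition scaling the members higher from D1 to D2 were 4 with DMSO and 5 with TCDD, in place of 9 and 11, and the median of all genes shifted to -0.08 and -0.11. Leaving out 1 library at a time gave 7 to 9 higher and 14 to 17 lower members from D1 to D2 with DMSO, and 9 to 11 and 12 to 18 with TCDD. It gave 0 to 1 lower with TCDD at D1 and 0 to 1 higher in the difference of TCDD effects (MKI67 without TCDD D1 replicate 1). The median log2 fold change over the members moved across 0 in these fits: -0.03 to 0.06 for TCDD at D1, 0.00 to 0.06 at D2, -0.09 to 0.00 from D1 to D2 with DMSO and -0.02 to 0.06 in the difference, while with TCDD from D1 to D2 it ran from -0.10 to -0.01. Where a group keeps 1 library, that library is assumed to vary like the other groups. Under all these fits and with other size factors, no filter, DESeq2, the compared groups alone and the replicate block, 17 of 26 calls with DMSO (4 higher, 13 lower) and 17 of 27 with TCDD (5 higher, 12 lower) held. With the replicate block the counts were 9 higher and 16 lower with DMSO, 11 and 16 with TCDD, and 0 in each TCDD comparison. Replicates share only a number: deviations of same-numbered libraries from their group means correlated at -0.10 to 0.11. With the numbers of the TCDD groups crossed, an alternative chosen after seeing the data, 12 were higher and 18 lower. With 2 libraries a group, the spread between libraries and not the counts limits these comparisons.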

Other observations

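Among the called genes of the G1 list, which act before mitosis, 3 changes from D1 to D2 with DMSO exceeded those of all 40 members (CDK4, CCND3 and CDKN1C). CDK4 (0.84) was only slightly above CENPE (0.82), the largest of the members. Of 14 tested genes of the G1 list, 3 rose and 4 fell, where 32.5% of all tested genes rose and 30.7% fell. CDK4, a kinase that starts the exit from G1, rose (0.84 ± 0.05, adjusted p = 2.16e-12), from 137 and 135 CPM to 243 and 242 CPM. Its relative CDK6 fell (-0.49 ± 0.05, adjusted p = 2.34e-08). CCND3, cyclin D3, fell from 31.5 and 32.8 CPM to 14.1 and 13.5 CPM (-1.22 ± 0.07, adjusted p = 5.89e-12), and CDKN1C, the inhibitor p57, from 15.4 and 18.7 CPM to 7.54 and 7.69 CPM (-1.16 ± 0.10, adjusted p = 2.2e-09). In each of these genes the days did not overlap.

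Of 13 p53 targets, 5 rose and 2 fell with DMSO, beside the same background. BTG2 (0.55), an inhibitor of proliferation, and SESN1 (0.40), a stress sensor, rose, while CDKN1A (-0.45), the inhibitor p21, and the kinase PLK2 (-0.43) fell. Against DMSO, TCDD gave 0 calls among the 13 on either day by edgeR and by DESeq2, with 3 at an unadjusted p under 0.05 at D1 by each tool and 0 at D2, where edgeR called 1.14% of all tested genes at D1 and 2.9% at D2.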
